A study of Mus musculus with 8 samples.

Results

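The genes described here are 10 genes of MHC class II antigen presentation, chosen by name: the classical class II chain genes H2-Aa, H2-Ab1 and H2-Eb1, the genes H2-DMa, H2-DMb1 and H2-DMb2 of the peptide exchange factor, their modulators H2-Oa and H2-Ob, the invariant chain Cd74 and the transactivator Ciita. All 10 were found by their symbols among 16786 genes with a value. They were measured by RNA-Seq in tumor-associated macrophages (TAMs), sorted by FACS as CD45+F4/80+ cells on day 14 from s.c. B16 melanomas. B16 is a pigmented melanoma line of C57BL/6 origin that grows in these mice. The 4 TAM-WT libraries came from wild-type mice, which the study's methods name as littermates, and the 4 TAM-KO libraries from homozygous Colec11-/- mice. Colec11 encodes the soluble lectin collectin-11, and the knockout is present in every cell of the mouse, not only in macrophages. Both groups were on the C57BL/6 background, all mice carried the same tumor line. The labels give neither age nor sex, and the methods name male mice of 8 to 10 weeks as the default. The labels do not say whether a library is 1 animal. The study's description counts its replicates as mice, and the p-values measure the spread between libraries.

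MHC class II molecules present peptides from endocytosed proteins to CD4+ T cells. An α chain and a β chain assemble with the invariant chain in the endoplasmic reticulum, cathepsins trim the invariant chain in late endosomes, and H2-DM then exchanges the remaining fragment for a peptide, with H2-DO restraining it in some cells. Transcription of the classical class II genes depends on CIITA, a coactivator without DNA-binding activity of its own. CIITA docks on a complex of RFX, NF-Y and CREB proteins at the X and Y boxes of class II promoters. In macrophages Ciita is induced by interferon gamma in a step in which IRF1 takes part, and the class II level is a widely used measure of macrophage activation.

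The 7 complete libraries held from 16225362 to 17280267 expected reads on genes. The table of TAM-KO replicate 1 lacks 4214 of the 16786 genes, among them all 10 class II genes, so each test had 4 TAM-WT libraries and only 3 from TAM-KO. A level in TAM-KO replicate 1 was at hand for 6 of the 10: Cd74, Ciita, H2-Aa, H2-Ab1, H2-DMa and H2-Eb1. This level enters the means and not the test. It was taken from the table of the whole series, the authors' list of 3996 differentially expressed genes. Whether a gene has this level thus depends on the authors' own comparison. The other 4 have no level there. Colec11 itself had 0 to 4 expected counts in TAM-WT and 1 in each TAM-KO library, too few to check the genotype labels. TAM-WT replicate 1 stood apart from the other TAM-WT libraries in its T cell and NK cell transcripts, and TAM-KO replicate 1 in its neutrophil transcripts, so a call that was lost without either of them is named with its value.

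The sorted cells were rich in class II mRNA. Levels are given as FPKM, reads relative to transcript length and to the mapped reads of the library, so that genes of different length can be compared. Averaged over the 7 complete libraries, Cd74 was at 1690 FPKM, rank 35 of 16786 genes, followed by H2-Aa at 636, H2-Ab1 at 527 and H2-Eb1 at 239 FPKM. The exchange proteins followed, with H2-DMb1 at 96.3 and H2-DMa at 70.1 FPKM. H2-DMb2 at 6.42, Ciita at 6.24, H2-Oa at 1.10 and H2-Ob at 0.881 FPKM were the least abundant. The order was firm down to H2-DMa: every gene exceeded the next in each library where both have a level. H2-DMb2 exceeded Ciita in 4 of 7 libraries and H2-Oa exceeded H2-Ob in 5 of 7, so neither pair could be ordered beyond its spread. Defining macrophage genes were high as well, with the 7 macrophage markers (Adgre1, which encodes F4/80, Csf1r, Cd68, Mertk, C1qa, C1qb and Fcgr1) summing to between 5426 and 6729 FPKM.

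None of the 10 class II genes passed the test of TAM-KO against TAM-WT at an adjusted p of 0.05 (edgeR's quasi-likelihood test, Benjamini-Hochberg adjustment over all genes), against 9.92% of the 12412 genes tested. An unadjusted p under 0.05 was seen in 0 of the 10 and in 30.7% of all genes tested. DESeq2 and limma voom also called 0 of the 10. The fitted log2 fold change was above 0 for 9 of the 10 and below 0 for H2-DMb2, with a median of 0.60 over the 10 against 0.002 over all genes. The 95% interval of each of the 10 included 0. In none of the 10 were the groups separated by FPKM, against 18.9% of all genes tested. In bulk RNA, a lower level in a library can stand for fewer class II-positive cells, for less mRNA per cell or for more RNA from other cells, melanoma cells included. These cannot be told apart.

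**Figure D1:**
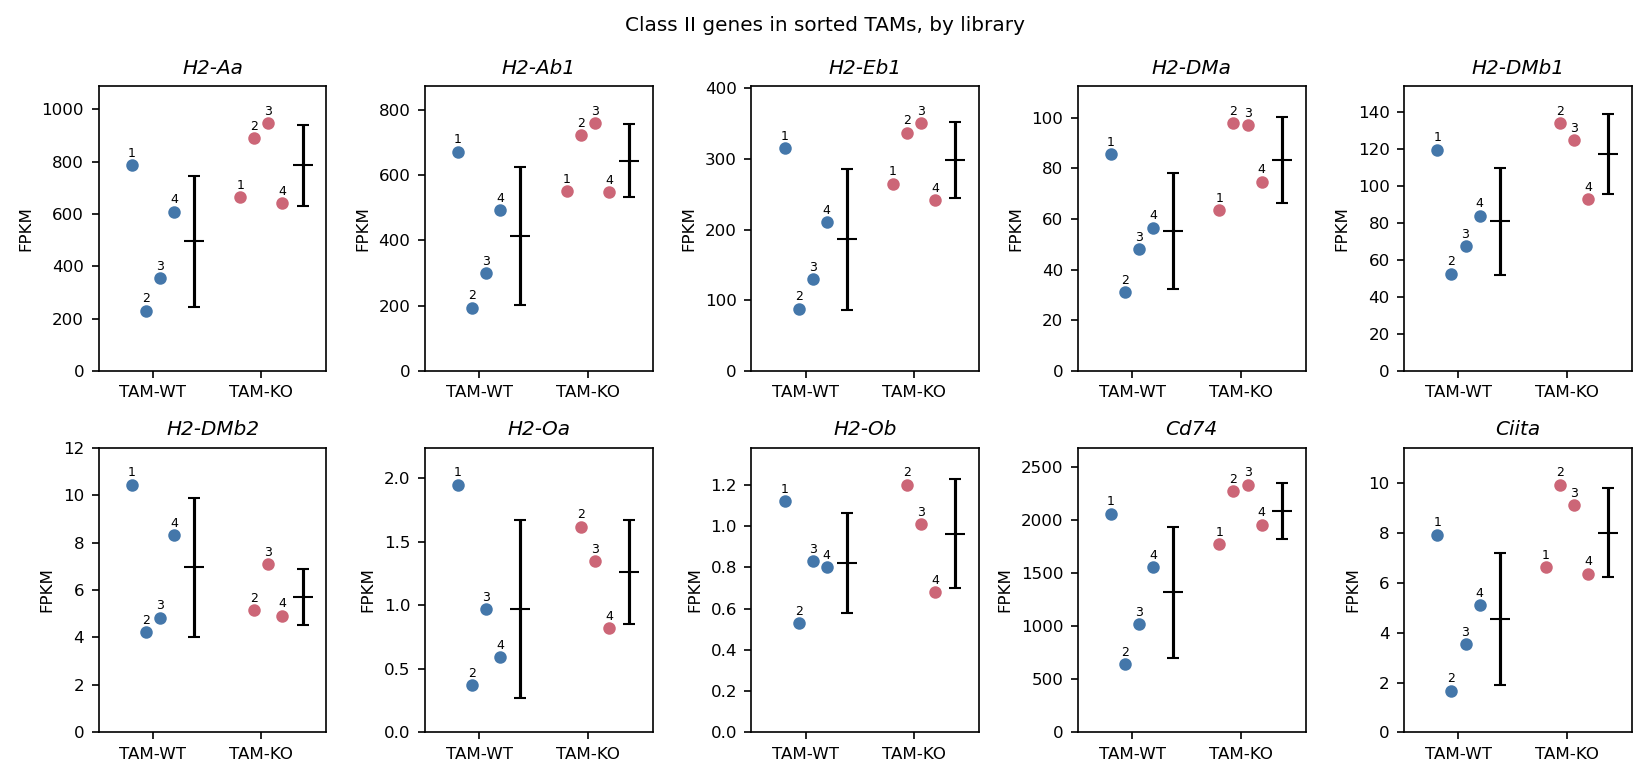
FPKM of each of the 10 class II genes (y axis, linear) in the TAM-WT libraries (blue) and TAM-KO libraries (red); digits give the replicate number and the black bars the mean ± SD of the group. TAM-WT replicate 1 lies among or above the TAM-KO libraries in every panel and TAM-WT replicate 2 is the lowest TAM-WT library in every panel.

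The chains of I-A, the classical class II molecule of C57BL/6 mice, were among the most abundant. H2-Aa, the I-A α chain, was at 786.3, 229.8, 354.8 and 608.5 FPKM in TAM-WT replicates 1 to 4 and at 663.9, 888.0, 946.5 and 641.1 FPKM in TAM-KO replicates 1 to 4. Replicates 2, 3 and 4 of TAM-WT were below each TAM-KO library, whereas replicate 1 was above replicates 1 and 4 of TAM-KO. Means were 495 ± 250 (SD, n = 4) in TAM-WT and 785 ± 155 (SD, n = 4) in TAM-KO, and the fitted log2 fold change was 0.64 (SE 0.37, 95% interval -0.20 to 1.48, adjusted p = 0.275, edgeR). H2-Ab1, the I-A β chain and the usual marker of class II in staining, was at 672.0, 194.3, 299.5 and 493.4 FPKM in TAM-WT and at 550.4, 722.5, 759.8 and 548.3 FPKM in TAM-KO. It ran through the libraries in the same order as H2-Aa, and the log2 fold change was 0.61 (SE 0.36, adjusted p = 0.291, edgeR).

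H2-Eb1 encodes the β chain of I-E, a molecule C57BL/6 mice do not display because their H2-Ea gene, for its α chain, is defective. Its mRNA was nonetheless at 315.1, 88.15, 129.9 and 210.4 FPKM in TAM-WT and at 264.9, 336.9, 350.4 and 241.8 FPKM in TAM-KO. TAM-WT replicate 1 was again inside the TAM-KO range, and the log2 fold change was 0.64 (SE 0.37, adjusted p = 0.285, edgeR). H2-Ea had no value in the tables, whereas H2-Eb2, a further β chain gene, had at most 0.80 FPKM (log2 fold change 0.09, SE 0.55).

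Within a library the classical chains kept an almost fixed proportion. H2-Ab1 was between 80.3% and 85.5% of the H2-Aa level in all 8 libraries, although H2-Aa itself spanned 3.42-fold within TAM-WT. H2-Eb1 was between 42.7% and 48.1% of H2-Ab1. The proportions overlapped between the groups, and H2-Ab1 over H2-Aa averaged 83.9% ± 1.92 in TAM-WT against 82.5% ± 2.27 in the knockout (SD, n = 4 each).

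Cd74, the invariant chain that guides class II molecules to endosomes and blocks their groove on the way, was at 2059, 641.3, 1020 and 1554 FPKM in TAM-WT and at 1774, 2272, 2332 and 1955 FPKM in TAM-KO. Replicates 2 to 4 of TAM-WT were again below all TAM-KO libraries and replicate 1 was inside their range. The log2 fold change was 0.63 (SE 0.33, 95% interval -0.13 to 1.40, adjusted p = 0.238, edgeR). Cd74 lies on chromosome 18, away from the others, but its level followed theirs: it was between 306% and 357% of H2-Ab1 in every library.

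Ciita lies on chromosome 16 and encodes the class II coactivator described above. It was at 7.93, 1.67, 3.54 and 5.10 FPKM in TAM-WT and at 6.63, 9.94, 9.11 and 6.37 FPKM in TAM-KO. The order of the TAM-WT libraries was that of the classical chains, and the 4.75-fold span from replicate 2 to replicate 1 was wider than theirs. The log2 fold change of 0.77 (SE 0.41, 95% interval -0.16 to 1.70, adjusted p = 0.238, edgeR) was the largest of the 10 but did not pass. Ciita amounted to between 0.859% and 1.38% of H2-Ab1, lowest in TAM-WT replicate 2, where H2-Ab1 was also lowest.

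H2-DM is the peptide editor of class II loading. H2-DMa, its α chain, was at 85.47, 31.07, 48.00 and 56.49 FPKM in TAM-WT and at 63.31, 97.77, 96.97 and 74.70 FPKM in TAM-KO. Each TAM-KO library was above TAM-WT replicates 2 to 4, and 2 of them were above replicate 1. The log2 fold change was 0.58 (SE 0.28, 95% interval -0.06 to 1.23), with an adjusted p of 0.201 (edgeR), the lowest of the 10. H2-DMb1, the main β chain gene, was at 119.5, 52.44, 67.27 and 83.90 FPKM in TAM-WT and at 133.8, 124.5 and 92.88 FPKM in TAM-KO replicates 2 to 4, with a log2 fold change of 0.44 (SE 0.25, adjusted p = 0.271, edgeR).

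H2-DMb2, the neighboring β chain gene, did not run with the others. It was at 10.44, 4.22, 4.83 and 8.31 FPKM in TAM-WT and at 5.14, 7.08 and 4.92 FPKM in TAM-KO replicates 2 to 4. All 3 TAM-KO libraries fell inside the TAM-WT range, and the log2 fold change was -0.38 (SE 0.32, 95% interval -1.10 to 0.35, adjusted p = 0.459, edgeR). Set against H2-DMb1 in the same library, H2-DMb2 amounted to 8.74%, 8.05%, 7.18% and 9.90% in TAM-WT and to 3.84%, 5.69% and 5.30% in TAM-KO. This proportion was lower in all 3 TAM-KO libraries than in any TAM-WT library. The same held, by narrower margins, for H2-DMb1 over H2-DMa (124% to 137% in TAM-KO, 140% to 169% in TAM-WT) and for H2-Ob over H2-DMb1 (at most 0.897% in TAM-KO, at least 0.937% in TAM-WT). All other proportions computed between class II genes overlapped between the groups. Those that did not overlap all contain H2-DMb1, so they are not separate observations, and all lack TAM-KO replicate 1. These proportions were singled out after their values were seen, so no test is given; with 4 against 3 libraries an exact two-sided permutation test could not go below 0.0571 in any case.

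H2-DMb1 and H2-DMb2 are near copies, which bears on how reads were divided between them. Their coding sequences (GENCODE vM21, both 783 bases) were identical at 95.9% of positions, with 32 mismatches, and 48.1% of all 50-base stretches of H2-DMb2 occur unchanged in H2-DMb1. The 120 coding bases with the most differences, bases 201 to 320 in both, hold 23 of the mismatches. They are shown because reads that cover them can be assigned to 1 gene; capitals mark the mismatches.
H2-DMb1: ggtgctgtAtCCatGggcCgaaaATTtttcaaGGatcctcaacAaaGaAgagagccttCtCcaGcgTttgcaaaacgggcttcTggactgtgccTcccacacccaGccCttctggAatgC
H2-DMb2: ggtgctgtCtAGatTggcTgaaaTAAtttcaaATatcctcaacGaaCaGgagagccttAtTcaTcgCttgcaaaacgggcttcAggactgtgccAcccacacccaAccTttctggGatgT
With the counts of both genes summed, the log2 fold change was 0.38 (SE 0.25, adjusted p = 0.341, edgeR), close to that of H2-DMb1 alone. H2-DMb1 had most of these counts (2071.4 against 203.6 in TAM-WT replicate 1), so the sum cannot show how shared reads were divided. Given the identical stretches, the level of H2-DMb2 is uncertain wherever reads were shared.

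H2-DO, the inhibitor of H2-DM that is best known from B cells, was the least counted, with 5 to 26 expected counts a library for H2-Oa and 22 to 47 for H2-Ob. H2-Oa, its α chain, was at 1.95, 0.37, 0.97 and 0.59 FPKM in TAM-WT and at 1.62, 1.35 and 0.82 FPKM in TAM-KO replicates 2 to 4. H2-Ob, its β chain, was at 1.12, 0.53, 0.83 and 0.80 FPKM in TAM-WT and at 1.2, 1.01 and 0.68 FPKM in TAM-KO. For both genes the groups overlapped widely, with log2 fold changes of 0.28 (SE 0.52, adjusted p = 0.752) and 0.12 (SE 0.30, adjusted p = 0.820) in edgeR. H2-Oa amounted to between 1.04% and 2.28% of H2-DMa, and H2-Ob to between 0.732% and 1.23% of H2-DMb1.

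The spread among TAM-WT libraries had 1 pattern. TAM-WT replicate 1 was the highest and replicate 2 the lowest of the 4 in all 10 genes. Replicate 1 was the highest TAM-WT library for 31.3% of all genes tested. The share of all genes with replicate 2 lowest was not computed. Replicate 2 was also the lowest TAM-WT library for all 7 macrophage markers, so this position is not particular to class II. The TAM-WT span of those markers ran from 1.16-fold for Mertk to 1.64-fold for Fcgr1. From high to low the order was replicate 1, 4, 3 and 2 in 8 of the 10 (6.24% of all genes tested), and H2-Oa and H2-Ob exchanged replicates 3 and 4. In 6 of the 10 genes TAM-WT spanned over 3-fold, from 3.21-fold for Cd74 to 5.27-fold for H2-Oa, whereas no gene spanned 2-fold among the TAM-KO libraries. Replicates 2 and 3 of TAM-KO were the highest TAM-KO libraries in all 10.

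**Figure D2:**
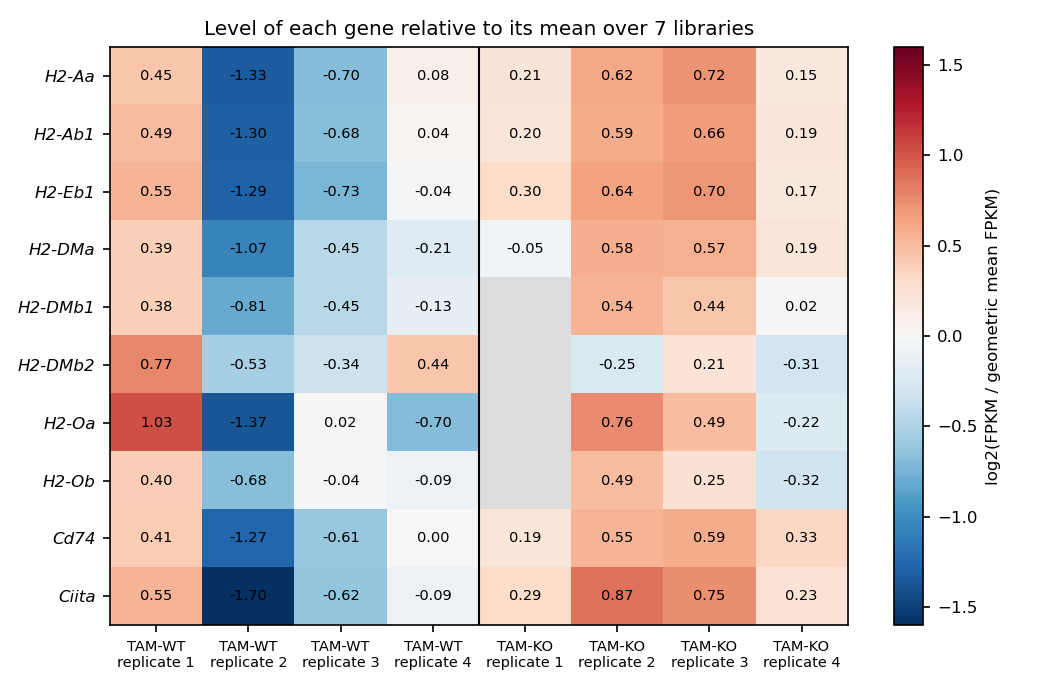
Level of each class II gene (rows) in each library (columns) as log2 of its FPKM over its geometric mean in the 7 complete libraries; blue is below the mean, red above, grey not listed. The column of TAM-WT replicate 2 is blue throughout, from -0.53 for H2-DMb2 to -1.70 for Ciita, and that of TAM-WT replicate 1 red throughout.

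Leaving out 1 library changed the size of the difference and no call. Without TAM-WT replicate 1 the log2 fold changes rose to 0.92 for H2-Aa, 0.91 for H2-Ab1, 0.98 for H2-Eb1, 0.90 for Cd74 and 1.14 for Ciita, with adjusted p from 0.0906 to 0.133 (edgeR) for these 5. H2-DMa, at 0.84, came closest with an adjusted p of 0.0647 (edgeR). Without TAM-WT replicate 2 they fell to 0.39, 0.37, 0.39, 0.40 and 0.50, and to 0.38 for H2-DMa. With the series-table value of TAM-KO replicate 1 included, the adjusted p was between 0.236 and 0.294 (edgeR) for the 6 genes that have one.

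**Figure D3:**
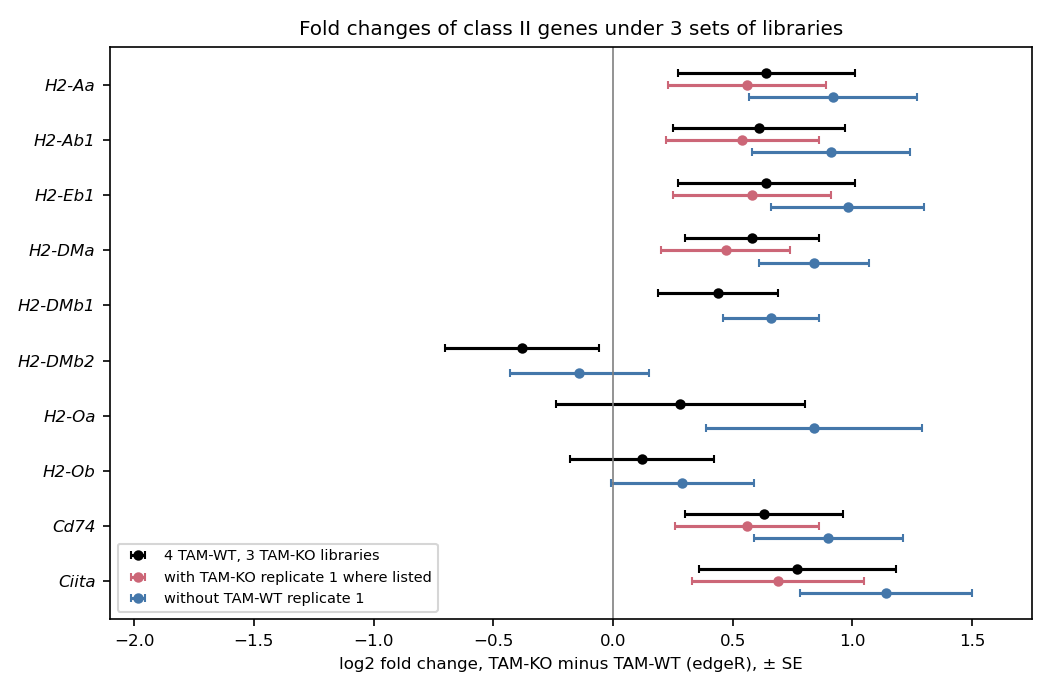
Log2 fold change of each class II gene in TAM-KO relative to TAM-WT (x axis; points are edgeR estimates and bars ± SE) with 4 TAM-WT and 3 TAM-KO libraries (black), with TAM-KO replicate 1 added where the series table lists it (red) and without TAM-WT replicate 1 (blue). H2-DMb2 is the only gene with estimates below 0, and without TAM-WT replicate 1 Ciita is highest at 1.14.

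The 8 genes on chromosome 17 lie in the MHC within 224 kb (GRCm38.p6, positions 34092379 to 34316674, in the order H2-Oa, H2-DMa, H2-DMb2, H2-DMb1, H2-Ob, H2-Ab1, H2-Aa and H2-Eb1). RefSeq promoter sequences, from 250 bases before the annotated start to 50 after it, were at hand for 7 of the 10 genes and not for H2-Ab1, Cd74 and Ciita. They are shown because the X and Y boxes are where CIITA acts. The core of the Y box, ATTGG, was found on either strand in the promoters of all 7 and in 37.4% of all 32851 promoters of that length. The 3' part of the X box, ACNGATG, followed after 10 to 25 bases by ATTGG, occurred in the promoters of H2-Eb1, H2-DMb1 and H2-DMb2, and, searched on both strands, in 0.128% of all promoters. Capitals mark ACNGATG and ATTGG below, and each sequence is on the strand of its gene.
H2-Eb1, chr17:34305764-34305827, plus strand: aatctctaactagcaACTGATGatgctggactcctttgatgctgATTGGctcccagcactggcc
H2-DMb1, chr17:34153085-34153149, plus strand: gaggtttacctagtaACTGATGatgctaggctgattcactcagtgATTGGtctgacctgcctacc
H2-DMb2, chr17:34145114-34145178, plus strand: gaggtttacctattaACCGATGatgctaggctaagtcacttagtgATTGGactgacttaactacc
In these 3 the boxes are 22 or 23 bases apart, and the Y box core begins 59, 61 and 90 bases before the annotated start. H2-DMb1 and H2-DMb2 thus have nearly the same arrangement, although the mRNA of H2-DMb2 was at 3.84% to 9.90% of that of H2-DMb1. In H2-Aa, H2-Oa, H2-Ob and H2-DMa the Y box core was found 48, 43, 57 and 198 bases before the start, without ACNGATG at that spacing. Only this exact string was searched for, so an X box with other letters would have been missed. For H2-DMa, which has 2 promoters in the table, the match was in 1 of them.
H2-Aa, chr17:34287852-34287911, minus strand: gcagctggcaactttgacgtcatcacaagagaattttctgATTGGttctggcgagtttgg
H2-Oa, chr17:34092296-34092355, plus strand: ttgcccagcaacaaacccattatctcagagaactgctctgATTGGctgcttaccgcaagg
H2-Ob, chr17:34238808-34238867, plus strand: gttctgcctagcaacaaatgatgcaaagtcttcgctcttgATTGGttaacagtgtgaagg
H2-DMa, chr17:34125280-34125339, plus strand: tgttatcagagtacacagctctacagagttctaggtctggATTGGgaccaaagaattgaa
A match describes these letters and no binding was measured.

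Around the class II genes, 39 genes of the pathway passed the filter on low counts and 9 of them (23.1%) were called, 5 higher and 4 lower in TAM-KO. Of all genes tested 9.92% were called, 4.63% higher and 5.29% lower. The pathway lists were written with earlier results of these data known, so setting these shares side by side is not a test. Rfx5 and Kat2b were tested with all 4 TAM-KO libraries, and Irf1, Ctsd, Cd83, Cd9, Cd80 and Lag3, missing from the table of replicate 1, with 3. In the step from interferon gamma to Ciita, Irf1, which encodes a transcription factor of the interferon-inducible Ciita promoter, was at 38.69, 23.56, 34.23 and 43.26 FPKM in TAM-WT and at 58.10, 68.34, 79.02 and 52.85 FPKM in TAM-KO. The groups did not overlap, and Irf1 rose from 34.9 ± 8.43 to 64.6 ± 11.6 FPKM (SD, n = 4 each; log2 fold change 0.82, SE 0.21, adjusted p = 0.0488, edgeR). The receptor chains Ifngr1 and Ifngr2, the kinases Jak1 and Jak2, and Usf1 were not called, with log2 fold changes between -0.16 and 0.21. Ciita, downstream of these, was not called, as given above; whether its change differs from that of Irf1 was not tested.

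Of the 7 genes of the complex that CIITA binds, 1 rose. Rfx5, a subunit of the RFX factor of the X box, was at 4.33 ± 0.582 FPKM in TAM-WT and 6.00 ± 0.471 FPKM in TAM-KO (SD, n = 4 each) with no overlap between groups, and its log2 fold change was 0.37 (SE 0.089, adjusted p = 0.0361, edgeR). Rfxap, Rfxank, Creb1 and the NF-Y subunits Nfya, Nfyb and Nfyc, which bind the Y box, had log2 fold changes between -0.23 and 0.13 and were not called; Nfya at 30.1 and Nfyc at 33.6 FPKM in TAM-WT were the most abundant. Among 6 repressors and partners of CIITA, the acetyltransferase gene Kat2b rose by 0.33 on the log2 scale (SE 0.090, adjusted p = 0.0481, edgeR). Prdm1, which encodes the repressor Blimp-1, had -0.41 (SE 0.22, adjusted p = 0.240, edgeR), and Hdac2 and Ep300, the most abundant of the list, -0.11 and 0.14.

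Among the 8 genes of antigen processing, 1 fell and none rose. Ctsd, the endosomal aspartic protease cathepsin D, was at 3302, 4153, 4265 and 3240 FPKM in TAM-WT and at 2829, 1923, 1746 and 2785 FPKM in TAM-KO. It was lower in each TAM-KO library than in any TAM-WT library, with a log2 fold change of -0.90 (SE 0.21, adjusted p = 0.0402, edgeR). Ctsb, cathepsin B, was the most abundant at 5195 ± 389 FPKM in TAM-WT and 3809 ± 675 (SD, n = 3) in TAM-KO, and missed the threshold at -0.56 (SE 0.17, adjusted p = 0.0730, edgeR). Ctss, the protease that makes the last cut in the invariant chain in macrophages, had a log2 fold change of 0.00 (SE 0.19, adjusted p = 0.990, edgeR). Lgmn, Ctsl, Ctsz, Ifi30 and Sppl2a were not called either.

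Of the 5 genes of class II turnover and the partners of CD74, 2 fell. Cd83, whose product opposes the ubiquitination of class II molecules, was at 39.33, 71.86, 82.91 and 68.54 FPKM in TAM-WT and at 36.65, 30.33, 33.91 and 33.09 FPKM in TAM-KO (log2 fold change -1.13, SE 0.25, adjusted p = 0.0332, edgeR). TAM-WT replicate 1, the highest of its group in class II, was the lowest in Cd83. Cd9, a tetraspanin that associates with class II molecules at the surface, fell from 215 ± 39.7 to 87.6 ± 39.1 FPKM (SD, n = 4 each; log2 fold change -1.68, SE 0.29, adjusted p = 0.0205, edgeR). Marchf1, the ligase that ubiquitinates class II, had 0.42 (SE 0.18, adjusted p = 0.151, edgeR), and Cd44 and Mif, a coreceptor and a ligand of CD74, had 0.24 and 0.11 and were not called.

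The costimulator Cd80 fell by 0.75 on the log2 scale (SE 0.16, adjusted p = 0.0329, edgeR), from 14.0 ± 2.16 to 9.69 ± 1.68 FPKM (SD, n = 4 each), whereas Cd86 and Cd40 were not called (-0.33, SE 0.19, and 0.02, SE 0.14). Lag3, an inhibitory receptor of T cells and NK cells that binds class II, was at 1.59, 0.33, 0.64 and 0.33 FPKM in TAM-WT and at 3.04, 4.31, 3.81 and 2.18 FPKM in TAM-KO. It rose by 2.14 on the log2 scale (SE 0.50, adjusted p = 0.0385, edgeR), and Cd4, the other receptor, had -0.29 (SE 0.27, adjusted p = 0.507, edgeR). The number of pathway genes called, 9, depended on the libraries in the fit. It was 0 when replicate 3 of TAM-WT was left out, and also 0 without replicate 2 or replicate 3 of TAM-KO. It was 2 without replicate 4 of TAM-WT and 14 without replicate 2 of TAM-WT. Of the libraries that stand apart, leaving out replicate 1 of TAM-WT ended the call of Irf1 (log2 fold change 0.85, adjusted p = 0.0718, edgeR). Leaving out replicate 1 of TAM-KO ended those of Rfx5 (0.38, adjusted p = 0.0595) and Kat2b (0.34, adjusted p = 0.0857, edgeR). It also took the adjusted p of Irf1 to 0.0591 with the fold unchanged at 0.82, since that library is not in the fit of Irf1 and only the adjustment over all genes moved.

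**Figure D4:**
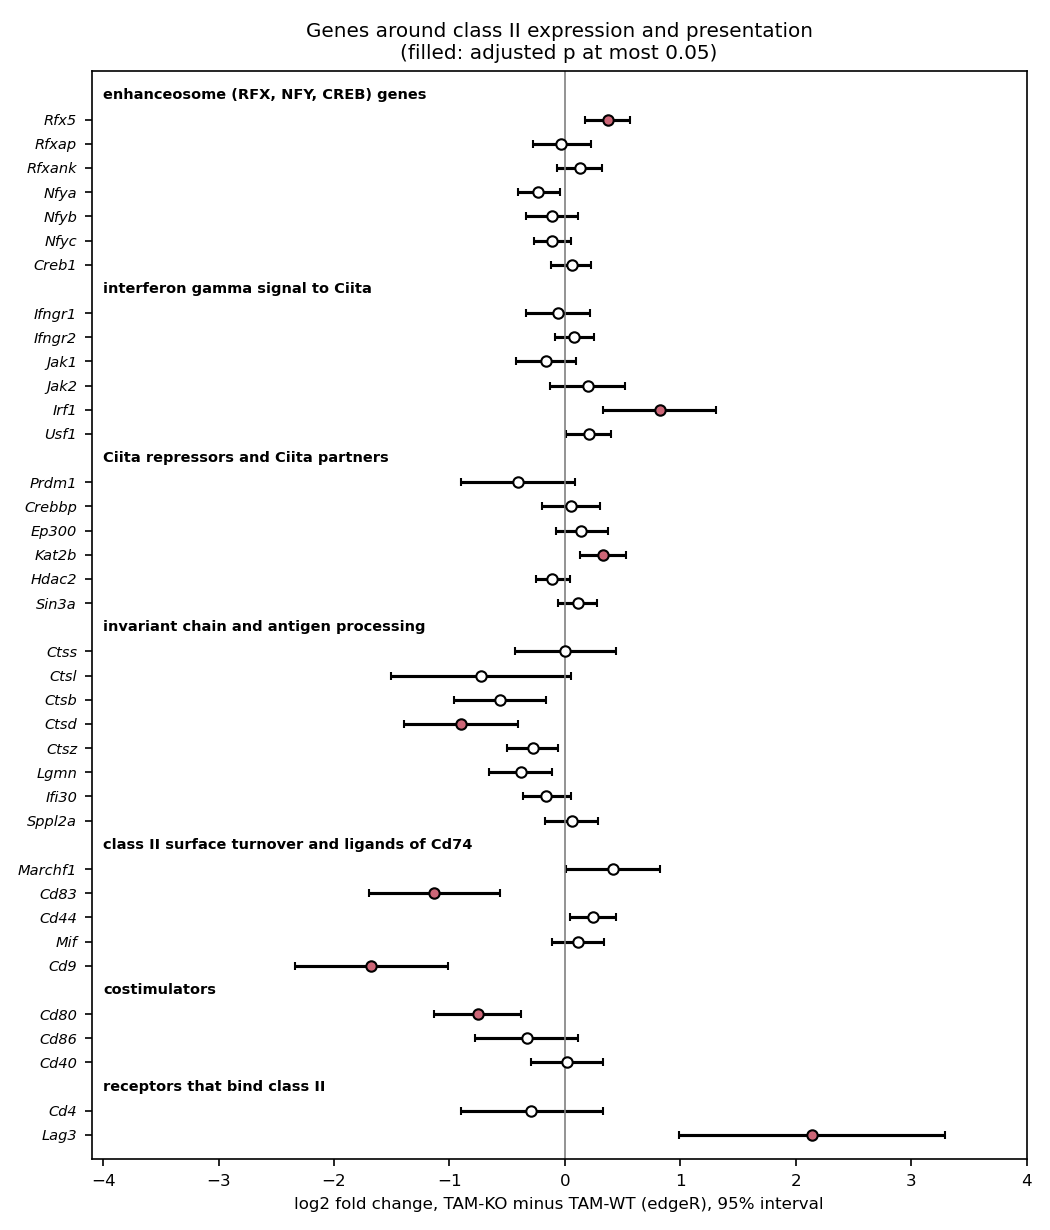
Log2 fold change in TAM-KO relative to TAM-WT (x axis; points are edgeR estimates, bars 95% intervals) for genes around class II expression, grouped by role; filled points have an adjusted p of at most 0.05. Irf1, Rfx5, Kat2b and Lag3 are filled above 0, and Ctsd, Cd83, Cd9 and Cd80 below 0.

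Transcripts of other cells that carry or see class II were measured beside these values, and their part in the class II levels was not tested. Over all genes tested 9.92% were called, the share to set beside each count of markers called. Of 8 B cell markers, 6 were under 1 FPKM in every library, among them Ms4a1 (at most 0.11) and Pax5 (at most 0.07), and 0 of 2 tested were called; Cd79b and Cd79a, the most abundant, had log2 fold changes of 0.88 and -0.52. Of 10 conventional dendritic cell markers, 1 was called, near that share, and the median log2 fold change of the 10 was 0.02. The called gene was Xcr1, a chemokine receptor of cross-presenting dendritic cells. Xcr1 rose by 1.77 on the log2 scale (SE 0.46, adjusted p = 0.0435, edgeR) at no more than 0.92 FPKM. Its call was lost without TAM-KO replicate 1 (1.87, adjusted p = 0.0662, edgeR). Their summed level was between 18.9 and 43.7 FPKM in TAM-WT and between 28.4 and 33.2 FPKM in TAM-KO replicates 2 to 4, led by Ccl22 and Fscn1 (log2 fold changes -0.36 and 0.24, not called). Within TAM-WT it was highest in replicate 1 and lowest in replicate 2, as the class II genes were. Replicate 1 also exceeded each of TAM-KO replicates 2 to 4 in this sum, and among the 10 class II genes in H2-DMb2 and H2-Oa only. TAM-KO replicate 1 has no such sum, since some of the markers lack a value there. Its Fscn1 and Ccl22 were at 10.79 and 10.92 FPKM, against 8.93 and 11.42 in TAM-WT replicate 1. No plasmacytoid dendritic cell marker was called; of the most abundant, Bst2 also marks interferon responses and had 0.40 (adjusted p = 0.0503, edgeR), and Tcf4 had -0.06.

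The 6 T cell markers with a value summed to 13.6, 1.08, 1.46 and 1.52 FPKM in TAM-WT replicates 1 to 4 and to 25.2, 43.0, 36.2 and 15.8 FPKM in TAM-KO. TAM-WT replicate 1, highest of its group in all 10 class II genes, was thus also highest of its group in T cell transcripts. Of 6 tested, 1 passed: Cd2, an adhesion receptor, with a log2 fold change of 2.24 (SE 0.42, adjusted p = 0.0241, edgeR). Cd3g and Cd8a, the most abundant, had 3.0 (adjusted p = 0.0731) and 3.04 (adjusted p = 0.0544). Of 5 NK cell markers 2 were tested, and 4 were under 1 FPKM in every library, Eomes among them. Eomes rose (log2 fold change 2.59, adjusted p = 0.0452, edgeR) and Prf1, the most abundant, had 2.74 (adjusted p = 0.0912, edgeR). Ncr1, Klrb1c and Klra8 had too few counts to be tested. Klrb1c averaged 0.155 FPKM in TAM-WT and 0.0867 in TAM-KO, Klra8 0.05 and 0.0325, and Ncr1 0.025 and 0.085. The 5 markers summed to at most 3.16 FPKM in TAM-WT and 8.11 in TAM-KO replicates 2 to 4. Without TAM-WT replicate 1 the log2 fold changes were 2.71 for Cd2 (adjusted p = 0.0133) and 3.48 for Eomes (adjusted p = 0.0247, edgeR). Without TAM-KO replicate 1, which is in neither fit, Cd2 had an adjusted p of 0.0350 and Eomes one of 0.0553 (edgeR), so the call of Eomes was lost.

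Of the monocyte genes, Plac8 (log2 fold change 1.41, adjusted p = 0.0123) and Ly6c2 (1.79, adjusted p = 0.0440) rose in TAM-KO by edgeR. Plac8 was also called without TAM-WT replicate 1 (1.55, adjusted p = 0.0104) and without TAM-KO replicate 1 (1.44, adjusted p = 0.0297, edgeR). The call of Ly6c2 was lost in both cases (1.87, adjusted p = 0.0636, and 1.79, adjusted p = 0.0546, edgeR), the latter library not being in its fit. Ccr2, which these cells need to leave the marrow, was not called at -0.05. Of the neutrophil markers S100a8 rose by 2.68 on the log2 scale (SE 0.73, adjusted p = 0.0481, edgeR), at 73.46 FPKM in TAM-KO replicate 1 against 9.13 to 15.83 in the other TAM-KO libraries, and Csf3r and S100a9 were not called (0.58 and 2.66). Without that library S100a8 had 1.52 (adjusted p = 0.0444, edgeR), and without TAM-WT replicate 1 it had 2.83 and was no longer called (adjusted p = 0.0726, edgeR). Among the 7 macrophage markers 0 were called; C1qa and Cd68, the most abundant, had 0.13 and -0.55. The 5 melanoma markers (Pmel, Dct, Mlana, Tyr and Tyrp1) had summed levels of 2527, 4235, 1928 and 1873 FPKM in TAM-WT and of 3643 to 4878 FPKM in TAM-KO, with 0 of 5 called; Pmel and Dct had 0.59 and 0.49. TAM-WT replicate 2, lowest in class II, had the most melanoma RNA of its group. The TAM-KO libraries, at 3643 to 4878 FPKM of melanoma markers, had more class II mRNA than TAM-WT replicate 2. Whether melanoma RNA bears on the class II levels was not tested.

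**Figure D5:**
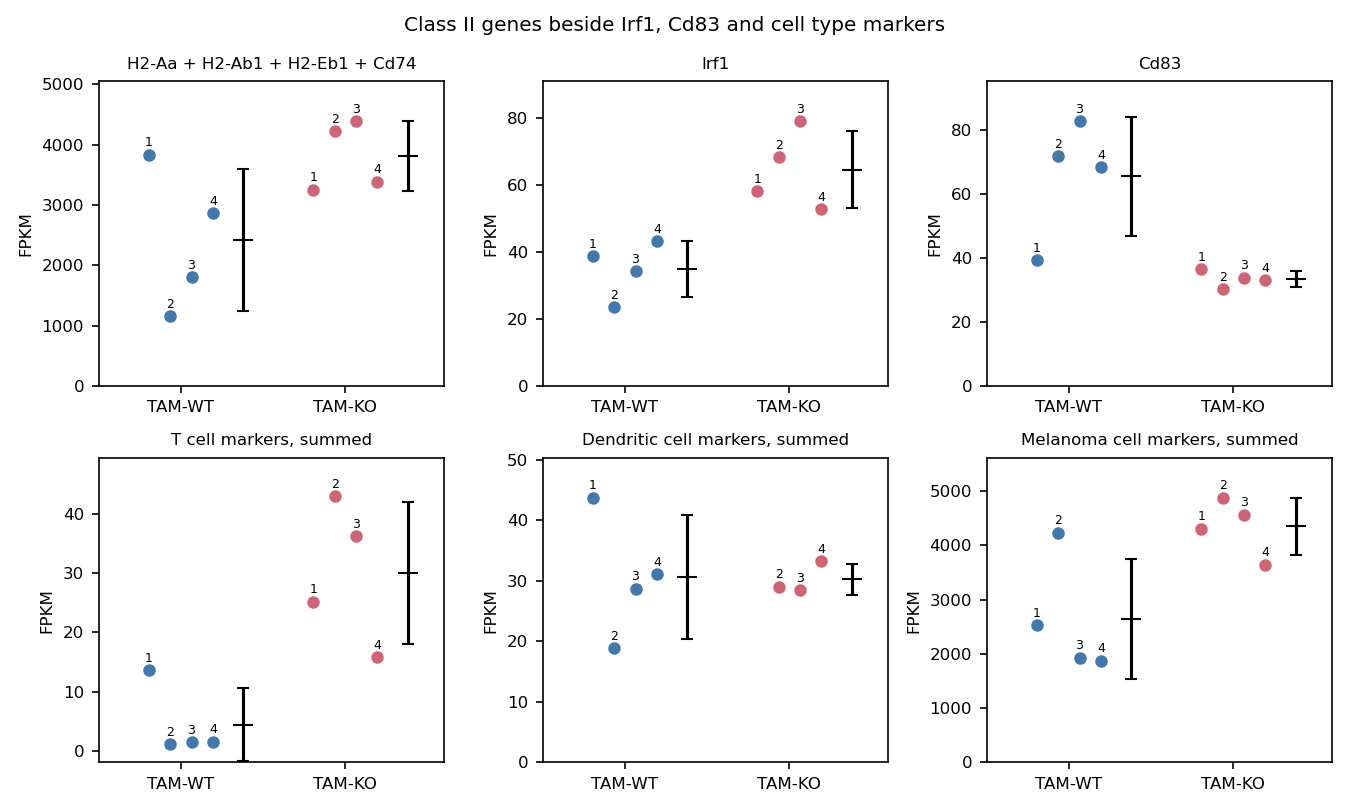
FPKM in each library (y axis, linear; digits are replicate numbers, black bars mean ± SD) of the summed classical chains and Cd74, of Irf1 and Cd83, and of summed markers of T cells, conventional dendritic cells and melanoma cells. The class II sum runs from 1154 to 3832 in TAM-WT and overlaps TAM-KO, whereas Irf1 and the T cell sum are higher, and Cd83 lower, in every TAM-KO library than in any TAM-WT library.

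The likeness of each gene to the class II pattern was measured as the SD, over the 7 complete libraries, of the difference between its log2 CPM (reads relative to library size) and the mean log2 CPM of H2-Aa, H2-Ab1, H2-Eb1 and Cd74; a member of these 4 was set against the mean of the other three. That mean itself varied with an SD of 0.70. The SD of the difference was 0.017 for H2-Ab1, 0.058 for H2-Aa, 0.070 for H2-Eb1 and 0.10 for Cd74, followed by 0.16 for Ciita, 0.18 for H2-DMa and 0.26 for H2-DMb1. H2-Ob with 0.46, H2-Oa with 0.51 and H2-DMb2 with 0.60 were much less alike; the first 2 are also the least counted. Among 10372 genes with a mean of at least 5 CPM, the median SD was 0.72. The 5 nearest outside the gene lists were P2ry14 with 0.11, a receptor for UDP-sugars, Naaa and Fgl2 with 0.14, H2-Q6 with 0.16 and Gvin1 with 0.17.

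These 5 genes were picked for their likeness, so sharing the low TAM-WT replicate 2 with the class II genes followed from the choice. Fgl2, which encodes a secreted fibrinogen-like protein, was at 69.99, 21.15, 39.23 and 54.97 FPKM in TAM-WT and at 52.78, 87.60, 105.5 and 69.94 FPKM in TAM-KO. Naaa, a lysosomal amidase, was at 86.42, 32.45, 48.66 and 67.90 FPKM in TAM-WT and at 64.18, 98.93, 112.2 and 75.66 FPKM in TAM-KO. P2ry14 was at 10.52, 3.55, 5.12 and 8.45 FPKM in TAM-WT and at 7.14, 14.12, 14.64 and 9.14 FPKM in TAM-KO. H2-Q6, a nonclassical class I gene, and Gvin1, a large interferon-inducible GTPase gene, belong to families of near copies, so their levels are uncertain. None of the 5 was called, with log2 fold changes from 0.47 for Naaa to 0.81 for Fgl2 and adjusted p from 0.102 to 0.293 (edgeR).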

How the data were processed

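RNA of sorted TAMs was sequenced by the authors on BGISEQ-500 from 4 TAM-WT and 4 TAM-KO samples; the submitters' processing notes name HISAT2 2.0.4, Bowtie2 2.2.5, RSEM 1.2.12 and the build GRCm38.p6. The authors deposited RSEM expected counts, which are estimated per gene and not normalized, FPKM values relative to length and mapped reads, and TPM values, which were read but not used. The deposited log2 ratios, p-values and q-values of the authors' comparison were not used. Rounded expected counts went into edgeR 4.0.16 under R 4.3.3 (TMM, filterByExpr, glmQLFTest, Benjamini-Hochberg adjustment); SE is the log2 fold change over the root of F. Genes with a value in all 8 tables were fitted on 8 libraries, the remaining ones on 7, with 1 adjustment of p across the pair of fits. For 629 genes the table of TAM-KO replicate 1 holds a displaced value, and 1 line holds 2 genes; these were not used. Groups came from the sample titles. Members and gene lists were chosen with earlier results of these data known. The genes named are the 10 members; of each pathway or marker list, the called and the 2 most abundant genes; and the 5 nearest genes of the likeness measure. Other genes are named as parts of their lists. A few list genes enter the list counts, but their own values are not reported here. Alternatives were DESeq2 1.42.0, limma 3.58.1 (voom; log2(FPKM + 1) and log2(FPKM + 0.1)), other scalings and filters, a replicate block, and each library left out. Each pair of replicates differed by more than sampling noise. The fits were tested on simulated data. Coordinates and promoters are RefSeq's for GRCm38.p6, coding sequences GENCODE vM21, aligned with Biopython 1.88.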

Additional observations from a re-analysis of the deposited data

Results flagged for a closer look

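Of 29 groups of 4 libraries examined, covering the class II genes and the summed markers of each cell type, 4 held 1 library far from the others (a gap above Dixon's 95% limit for 4 values); chance alone flags about 1 group in 20. None was a class II gene. TAM-WT replicate 1 had a summed B cell marker level of 7.2 FPKM against 4.67 to 5.07 in the other TAM-WT libraries. Cd79b alone was 6.33 FPKM of that sum. Ms4a1, Pax5, Blk and Fcmr were lowest of TAM-WT in replicate 1, and Cd79a at 0.64 FPKM was below replicates 2 and 3 (1.41 and 0.96). The same library had a T cell level of 13.6 against 1.08 to 1.52. Its NK cell level was 3.16 against 0.07 to 0.29, of which Prf1 was 2.49 FPKM. TAM-KO replicate 1 had a summed neutrophil marker level of 193 FPKM against 48.5 to 54.9 in the other TAM-KO libraries. The part of these transcripts in the class II levels of the same libraries was not tested.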

How the results depend on the processing

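The count of class II genes called was 0 under every alternative but one, at adjusted p thresholds of 0.01 and 0.1 and with a fold change of at least 2; it was 3 in that one (H2-DMa, H2-DMb1 and Cd74, adjusted p = 0.00248, 0.0266 and 0.000964) with DESeq2 and the replicate block, an alternative chosen after seeing the data. Of 211 log2 fold changes of members under alternatives, 204 kept direction and side of the threshold. The sum of H2-DMb1 and H2-DMb2 had 0.38 against -0.38 for H2-DMb2 alone, and is counted among the 211 as a change of direction. H2-DMb2 by itself stayed below 0 in every alternative, from -0.57 to -0.092. Leaving out 1 library, H2-Oa ran from -0.0024 (without TAM-WT replicate 2) to 0.84 and H2-Ob from -0.058 (without TAM-WT replicate 2) to 0.30, and was at -0.031 without TAM-KO replicate 2. Library totals without TMM shifted the median gene by 0.08.

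Pathway genes called numbered 9 and, leaving out 1 library, from 0 (replicate 3 of TAM-WT, or replicate 2 or 3 of TAM-KO, left out) over 2 (replicate 4 of TAM-WT) to 14 (replicate 2 of TAM-WT). Marker genes called numbered 7 and, leaving out 1 library, from 1 (replicate 3 or 4 of TAM-WT, or 2 or 3 of TAM-KO) over 4 and 12 (replicate 1 of TAM-KO and of TAM-WT) to 17 (replicate 2 of TAM-WT). Markers called were 13 with library totals, 20 with DESeq2, 14 with limma voom, 15 with either FPKM pseudocount, 3 with at least 10 counts in every library, 4 with 7 libraries for all genes, 12 with replicate 1 of TAM-KO filled and replicate 1 of TAM-WT left out and 24 with DESeq2 and the block; the last 2 were chosen after seeing the data. All genes called numbered 1231, 2253 with DESeq2, 682 with 7 libraries, and with 1 library left out, from 77 (replicate 2 or 3 of TAM-KO), 151 and 416 (replicates 3 and 4 of TAM-WT) to 2755 (replicate 2 of TAM-WT). The cause was not tested.

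Replicate numbers did not pair the samples: deviations of same-numbered libraries correlated at -0.406, 0.0218, -0.289 and 0.289 over 8345 genes. With the replicate block, 0 class II genes, 4 pathway genes and 14 marker genes were called. H2-Oa and H2-Ob are limited by depth.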
